A study of Homo sapiens with 2 samples.

Results

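The genes described here are the cancer-testis antigen families on whole-genome expression arrays of Y79 cells, an established human retinoblastoma line that grows in suspension. Members were taken by gene name: MAGE-A, MAGE-B and MAGE-C, GAGE, XAGE, PAGE, BAGE, SSX, CTAG, SPANX and PRAME, the germ cell genes DAZL, DDX4, BRDT and SYCP1 to SYCP3, and the TEX genes whose number begins with 10 to 19, such as TEX10, TEX14 and TEX101. This gave 87 probes for 72 gene names, of 40976 probes for 30967 names on the array. The rule itself uses names and no measured value. One array was hybridized with RNA of untreated Y79 cells, and the other with RNA of Y79 cells collected 48 h after an siRNA against Ep-CAM (gene TACSTD1), an epithelial adhesion molecule. According to the study's text, both cultures had been exposed to 5′-azacytidine (AZC), a DNA demethylating agent used to bring back Ep-CAM expression, while the labels name the siRNA alone. Cells without AZC were not analysed here, so that no effect of AZC on the members can be read. The reference array is labelled untreated rather than scrambled siRNA, so that the effect of the siRNA sequence and that of transfection cannot be told apart.

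Cancer-testis antigens are proteins made in male germ cells and, apart from some placental cells, in few healthy adult tissues, but they reappear in many tumors. Many of them lie in copied clusters on the X chromosome, and their promoters are silenced by DNA methylation in somatic cells. Demethylating drugs such as AZC are known to switch several of them on in tumor lines. Because T cells can recognize their fragments, MAGE-A, CTAG1 (NY-ESO-1), SSX and PRAME have been studied as targets for immunotherapy. The name-based choice also took in genes outside this definition, among them CTAGE5 (now MIA2, a broadly expressed secretory pathway gene), SSX2IP and TEX10, which are active in ordinary dividing cells.

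Each gene was read by probes of 60 bases, printed here because near-identical family members and the base composition of a probe bear on what its signal can say. Positions are given on hg17, the build that the array's design file names. An annotation of that build was not used here, so that exon and UTR positions are not given; for 15 member probes the coordinates spanned over 100 bases, more than the probe itself. The first set shows SSX genes, whose products are repressors in the nucleus. The SSX2 probe at chrX:52670024-52670083 (plus strand) and the SSX9 probe at chrX:47912590-47915360 (minus strand) shared a run of 27 bases. The SSX5 probe at chrX:47805834-47805893 (minus strand), which had the most negative ratio of the members, shared at most 13 bases in a row with that SSX2 probe. The capitals mark the run shared between SSX2 and SSX9, and in SSX5 the run shared with SSX2.
SSX2: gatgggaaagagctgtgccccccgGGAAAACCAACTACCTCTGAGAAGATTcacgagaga
SSX9: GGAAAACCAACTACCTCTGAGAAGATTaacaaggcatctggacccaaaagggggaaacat
SSX5: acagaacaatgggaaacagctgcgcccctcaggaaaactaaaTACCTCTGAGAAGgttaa

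The second set shows MAGEA6 at chrX:151540737-151540796 (plus strand), the only member printed 10 times on each array, beside MAGEA12 at chrX:151570480-151570539 (minus strand), a member of the same family. Capitals mark their longest common run, of 16 bases.
MAGEA6: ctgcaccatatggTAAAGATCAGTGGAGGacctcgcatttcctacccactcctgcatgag
MAGEA12: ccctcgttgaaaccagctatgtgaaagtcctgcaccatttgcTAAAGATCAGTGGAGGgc

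The third set shows the pair of probes for SYCP1, a structural protein of the synaptonemal complex, which holds paired chromosomes together in meiosis. The first lies at chr1:115249437-115249590 and the second at chr1:115201922-115201981 (both plus strand), and capitals mark G and C, of which the first had 27 and the second 21.
SYCP1, first probe: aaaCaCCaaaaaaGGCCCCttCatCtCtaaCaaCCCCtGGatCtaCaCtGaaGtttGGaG
SYCP1, second probe: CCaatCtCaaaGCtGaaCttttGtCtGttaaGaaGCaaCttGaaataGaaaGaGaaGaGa

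Signals are the background-corrected intensity of a probe in scanner units. On the untreated array 47 of the 87 member probes (54.0%) were well above background, the scanner software's mark for a spot clearly brighter than its surroundings, against 70.1% of all probes. On the siRNA-treated array the mark was set for 46 of 87 (52.9%), against 67.6% of all probes. Of the members, 46 were marked on both arrays, 40 on neither, and 1, GAGE3, on the untreated array alone. Members at 44 of the 72 gene names were thus read above background by at least 1 probe. By chromosome, 29 of the 53 probes on X and 18 of the 34 elsewhere were marked on the untreated array.

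The mark was also set for genes of other cell types. Of 15 probes for T cell, leukocyte, endothelial, fibroblast and epithelial markers, 13 were well above background on the untreated array and 11 on the siRNA-treated array, among them the T cell gene CD3E with signals of 815 and 749 at its brighter probe and the epithelial keratin KRT8 with 589 and 648 at its brighter probe. These CD3E and KRT8 probes held 36 and 33 G and C. The other CD3E probe, with 33, read 418 and 429. The other KRT8 probe, with 25, read 17.7 and 17.75 and was marked on the untreated array alone. The median over the 15 probes was 29 G and C, against 25 over the members. The sperm protamine PRM1 read 160 and 181, and 9 of 11 germ cell marker probes were marked on both arrays. Among the markers of other cell types, PECAM1 (7.27 and 8.91) and one PTPRC probe (3.06 and 3.54) were dim on both arrays. Of 9 probes for photoreceptor and retinoblastoma genes, 6 were marked on the untreated array and 5 on the siRNA-treated array. GNB3 was the brightest of these at 202 and 184, CRX had 86.8 and 68.7, and NRL was dim at 3.95 and 5.11. Of 7 neural marker probes, 5 and 4 were marked, with TUBB3 at 7119.5 and 13252 at its brighter probe. The part of nonspecific hybridization in the member signals was not tested. Of the 153 negative control spots, 0 were marked on the untreated array and 1 on the siRNA-treated array, and their median signals were 3.54 and 4.15.

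**Figure D1:**
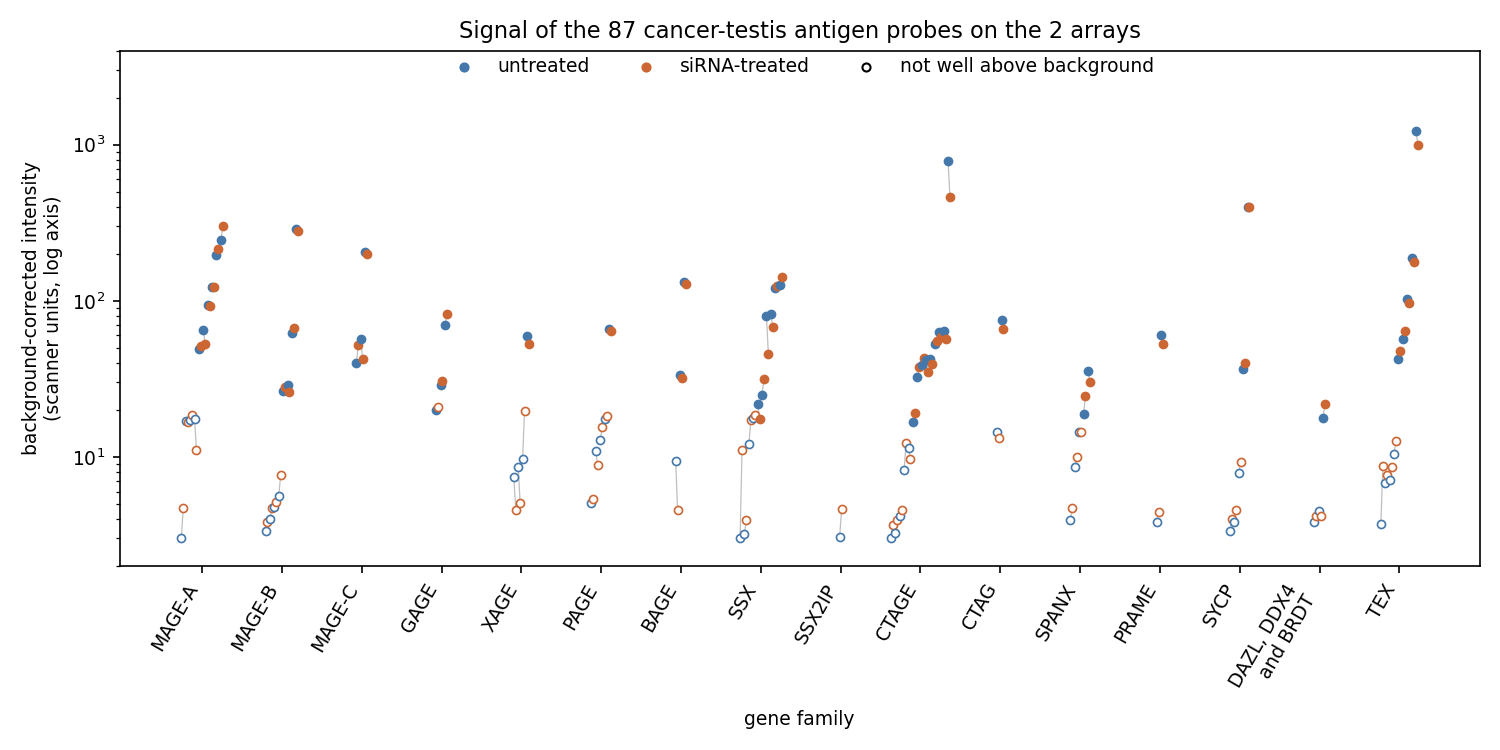
Background-corrected intensity (scanner units, log axis) of each of the 87 member probes by gene family. Blue points are the untreated array and orange points the siRNA-treated array, joined for each probe, and open points were not well above background. The open points lie at signals under 21 on both arrays, and the filled pairs run nearly level except at SSX5 (80.0 and 45.5) and the bright CTAGE1 probe (790 and 460).

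Of the 87 member probes, 47 were well above background on at least 1 array and could be tested. None of these members crossed the threshold of a log2 ratio of 1 in either direction. On the siRNA-treated array 0 were higher and 0 were lower, where 1.27% and 0.927% of the 29345 probes tested were (2.19% in either direction). With so few members tested, counts of 0 do not set them apart from these shares. With the wider limits of a linear ratio above 1.5 or below 0.55, which 4.01% and 1.69% of the probes tested passed, the count of members was again 0 in both directions. SSX5, at a ratio of 0.556, and CTAGE1, at 0.569, lay just inside the lower limit. The 46 members measured on both arrays had a median log2 ratio, siRNA-treated over untreated, of -0.05, against -0.03 over all 27044 probes measured on both. Of these members, 20 had a positive and 26 a negative ratio, from -0.85 to 0.34. A log2 ratio of size 0.5 or more was found for 2 of the 46 members (4.35%), SSX5 and CTAGE1, against 10.7% of all probes measured on both arrays. With 1 array per condition there is no spread between cultures, and no test of a difference between the conditions, or between the members and the other genes, was possible.

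**Figure D2:**
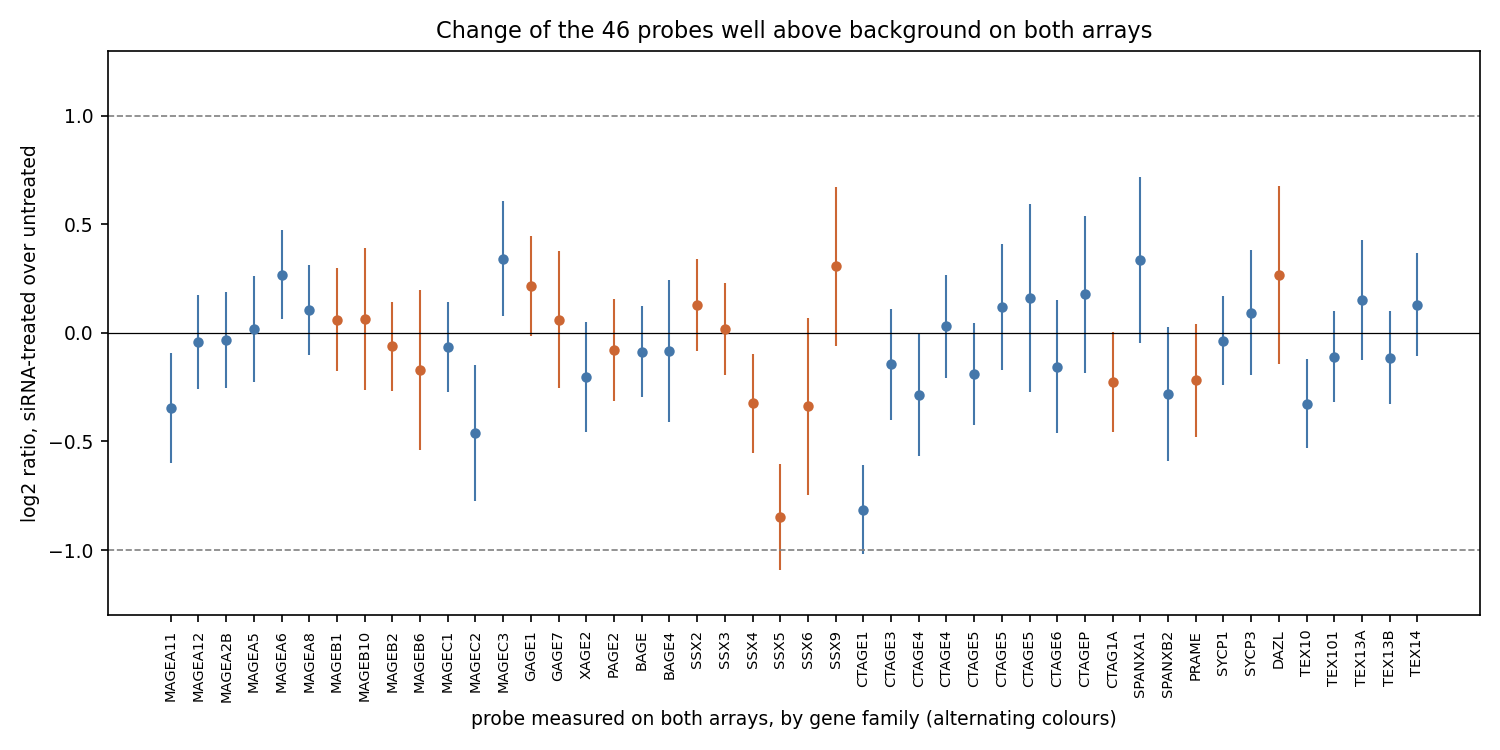
Log2 ratio, siRNA-treated over untreated, of the 46 member probes well above background on both arrays, ordered by family. Bars are 1 error of the scanner software's model, which covers technical error alone, and dashed lines mark the threshold of 1 in either direction. No point passes a dashed line, and SSX5 (-0.85) and CTAGE1 (-0.81) stand lowest.

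Among the MAGE-A genes, which encode partners of ubiquitin ligases, 6 of 10 probes were well above background on both arrays. MAGEA6 was the best measured, since its probe stood at 10 places. Its signals ran from 199 to 278 over the 10 untreated spots, with a mean of 244 ± 21.7 (SD over spots), and from 226 to 380 over the siRNA-treated spots, with a mean of 302 ± 40.4. The siRNA-treated spot was the brighter in 9 of 10 places, and 8 of the siRNA-treated spots lay above the brightest untreated one. The mean log2 ratio was 0.27 with an SD of 0.14 over places, from -0.04 to 0.43. The lowest was at row 446 and column 68, in the corner of the array described with MAGEC2 below. The spot at row 416 and column 45 (0.22) lay there too. With the corner left out the ratio was 0.32. The 10 spots of an array share 1 RNA sample, so that their spread is technical. Of the 195 probes printed 10 times and measured on both arrays, 8 (4.10%) had a ratio at least as large, and their median ratio was -0.01. The size and sign depended on the background correction. With the normexp model of limma the ratio was -0.24, where the median of all measured probes was -0.20. With that model fitted without spots dimmer than their surroundings it was 0.20. In the authors' table of unsubtracted brightness the MAGEA6 ratio was 0.01.

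**Figure D3:**
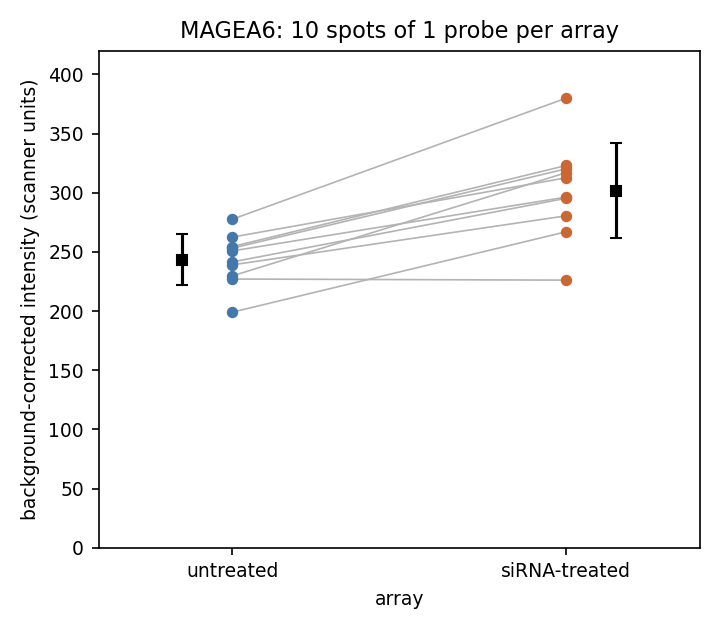
Background-corrected intensity (scanner units) of the 10 spots of the MAGEA6 probe on each array, joined by place on the array. Black squares and bars are the mean and SD over the 10 spots, 244 ± 21.7 untreated and 302 ± 40.4 siRNA-treated, and 9 of the 10 lines run upward. The remaining line joins a place in the corner of the array described in the text.

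MAGEA8 had signals of 195 untreated and 215 siRNA-treated (log2 ratio 0.11). MAGEA2B had 123 on each array (-0.03). MAGEA12, whose probe was shown above, had 93.4 and 93.0 (-0.04). These genes were level between the arrays within the model's technical error, which for members measured on both arrays ran from 0.20 to 0.43 on the log2 scale. MAGEA5, now listed as a pseudogene, had 49.3 and 51.1 (0.02). MAGEA11, a coactivator of the androgen receptor, had 65.1 and 52.5 (-0.35), lower on the siRNA-treated array by less than 2 model errors. MAGEA1, MAGEA4, MAGEA9 and MAGEA10 were not well above background on either array, with MAGEA9 the brightest of them on the untreated array at 17.6, and gave no ratio.

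In the MAGE-B family 4 of 8 probes were well above background on both arrays. MAGEB2 had signals of 287 and 281 (log2 ratio -0.06), and MAGEB1 had 62.5 and 66.8 (0.06). MAGEB10 had 26.3 and 28.1 (0.06), and MAGEB6 had 28.8 and 26.2 (-0.17). All 4 were level between the arrays within the model error. The other 4, MAGEB3, MAGEB4, MAGEB5 and MAGEB18, read from 3.34 to 5.64 untreated and from 3.82 to 7.61 siRNA-treated. All 3 MAGE-C probes were measured. MAGEC1, the largest of these proteins, had 204 and 200 (-0.06). MAGEC2 (CT10) had 56.9 and 42.4 (-0.46), and its spot lay in a corner of the array in which the ratios of all genes were more spread (SD over all measured probes 0.33 with the corner and 0.29 without it). The sign of MAGEC2 depended on the background correction, with a ratio of 0.14 under normexp and 0.10 in the authors' table of unsubtracted brightness. MAGEC3 had 40.0 and 51.9 (0.34), the highest ratio among the measured members in the main processing, at 1.29 times its model error. It was 0.08 under normexp and 0.10 in the authors' table, where CTAGEP was higher (0.35 and 0.19).

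GAGE, XAGE and PAGE are related families of small X-linked antigens. GAGE1 had signals of 69.7 and 82.8 (log2 ratio 0.21), and GAGE7, now GAGE12F, had 28.8 and 30.8 (0.06). GAGE3 had 19.8 and 20.9, and only the untreated value was marked well above background, so that no fold was given. The GAGE genes are nearly identical copies, and whether a probe reads several of them was not tested. Of 4 XAGE probes, XAGE2 alone was measured, at 59.3 and 52.7 (-0.20). XAGE1, in the corner named above, read 9.63 and 19.6 without passing the background mark on either array. Of 5 PAGE probes, PAGE2 alone was measured, at 66.3 and 64.4 (-0.08), and the other 4 read at most 17.5 and 18.2. BAGE had 132 and 127 (-0.09) at a probe placed on chromosome Y, whose spot lay in the corner named above. The BAGE probe placed on chromosome 21 was dim on both arrays, at 9.46 and 4.58. Whether the 2 probes read the same gene was not tested. BAGE4 had 33.3 and 32.2 (-0.08).

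The SSX genes, known for their fusion with SS18 in synovial sarcoma, were marked at 6 of 10 probes on both arrays. Their ratios ran from -0.85 at SSX5 to 0.31. The SD over the 6 probes, SSX5 included, was 0.42, against 0.26 over all measured members. It was not computed without SSX5. SSX5 had 80.0 untreated and 45.5 siRNA-treated (log2 ratio -0.85), over 3 times its model error of 0.25. The spot stood in the last column of the array, and the 41 measured probes within 5 rows and columns of it had a median ratio of -0.32, 9 of them at -0.5 or less and 0 at -1 or less. The part of this place on the array in the SSX5 value was not tested. The value was -0.40 with either normexp background correction and -0.45 in the authors' table of unsubtracted spot brightness.

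The other SSX probes were closer to level. SSX2 had 127 and 143 (0.13) and SSX9, with which its probe shares the run shown above, had 25.1 and 31.8 (0.31). SSX3 had 121 and 125 (0.02). SSX4 and SSX6 were lower on the siRNA-treated array within 2 model errors, with 82.5 and 67.5 (-0.32) and with 21.7 and 17.6 (-0.34). SSX1 and SSX7 stayed under the background mark, and so did SSX8, which read 3.02 and 11.1. SSX2IP, whose product binds SSX2 and works at the centrosome, read 3.09 and 4.62, at the level of the negative controls.

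CTAGE genes are named for an antigen found in cutaneous T-cell lymphoma, and 9 of their 14 probes were measured. At its bright probe CTAGE1, the testis-restricted founder of the family, had signals of 790 and 460 (log2 ratio -0.81), nearly 4 times its model error of 0.20. The 82 measured probes around this spot had a median ratio of -0.07, with 7 at -0.5 or less and 0 at -1 or less. Across the alternative ways of processing the ratio ran from -1.24 to -0.72. The other CTAGE1 probes were dim on both arrays, with 8.24 and 12.2 at one and 4.16 and 4.56 at the other, so that the lower value rests on 1 spot per array. Only SSX5 and CTAGE1 exceeded 2 model errors, 2 of 46 members (4.35%), where 11.5% of all probes measured on both arrays did.

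CTAGE3 had 63.3 and 58.7 (-0.14) at its measured probe. CTAGE4 had 41.8 and 35.1 (-0.29) at one probe and 52.9 and 55.3 (0.03) at another, which overlaps the first by a run of 32 bases. CTAGE6 had 42.6 and 39.2 (-0.16) and the pseudogene CTAGEP had 32.3 and 37.4 (0.18), in the corner named above. CTAGE5 had 3 measured probes. Those placed on chromosome 14 had 63.7 and 57.2 (-0.19) and 38.8 and 43.2 (0.12). The third, placed on chromosome 6, had 16.6 and 19.1 (0.16) and shared a run of 40 bases with the second CTAGE4 probe. The 2 further probes, placed on chromosomes 14 and 13, read under 4 on both arrays. In all 12 member probes shared a run of at least 20 bases with another member, 8 of them measured CTAGE or SSX probes, and whether such probes bind the transcripts of both genes was not tested.

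CTAG1A, which encodes NY-ESO-1, had signals of 75.1 and 65.8 (log2 ratio -0.23), and its relative CTAG2 stayed under the background mark at 14.4 and 13.3. PRAME, a repressor of retinoic acid receptor signaling, had 60.4 and 53.2 (-0.22) at one probe, and 3.84 and 4.44 at the other. These differences were within the model error. The SPANX proteins lie in the nuclear envelope of sperm. SPANXB2 had 35.6 and 30.0 (-0.28), and SPANXA1 had 18.9 and 24.4 (0.34) at a probe in that corner and 8.59 and 10.0 at another, dim on both.

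Among the germ cell genes, SYCP1 had signals of 401 on each array (log2 ratio -0.04) at the first probe shown above and 3.85 and 4.57 at the second. SYCP3, a component of the chromosome axis in meiosis, had 36.4 and 39.8 (0.09), while both SYCP2 probes were dim. DAZL, an RNA-binding protein of germ cells, had 17.8 and 22.0 (0.27), close to the lowest signals marked well above background on these arrays, 14.9 and 17.5. DDX4 (VASA), an RNA helicase of the germ line, read 4.49 and 4.18, and the testis bromodomain protein BRDT read 3.85 and 4.19. Both were thus at the level of the negative controls.

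TEX genes were named for their expression in testis. TEX10, part of a complex for ribosome maturation, had 1222.5 and 999 (-0.33). TEX101, a surface protein of germ cells, had 188 and 178 (-0.11), and the X-linked TEX13B and TEX13A had 102 and 96.6 (-0.11) and 42.2 and 48.0 (0.15). TEX14, required for the bridges between germ cells, had 56.9 and 63.9 (0.13) at one probe and 7.07 and 8.57 at another. None of these differed by 2 model errors. TEX11, TEX12 and TEX15 were dim on both arrays, with TEX15 at 3.71 and 8.76.

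Different probes under one gene name often disagreed. Of 11 member genes with several probes, 9 had both a probe well above background and a dim one on the untreated array. The probes named BAGE were placed on chromosomes 21 and Y, and those named CTAGE5 on chromosomes 14, 13 and 6. For these names the probes may thus read different loci. In 7 of the 9, BAGE among them, every probe above background had more G and C than every dim probe. The exceptions were CTAGE5 and SPANXA1. Such counts over all genes with several probes are not given here. SSX2 is an example besides SYCP1: the probe shown above, with 32 G and C, read 127 and 143, and the other, with 22, read 3.23 and 3.94. For PRAME the counts were 31 and 21. Other genes of the 7 were closer: BAGE had 25 against 24, and CTAGE1 had 25 against 24 and 21.

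**Figure D4:**
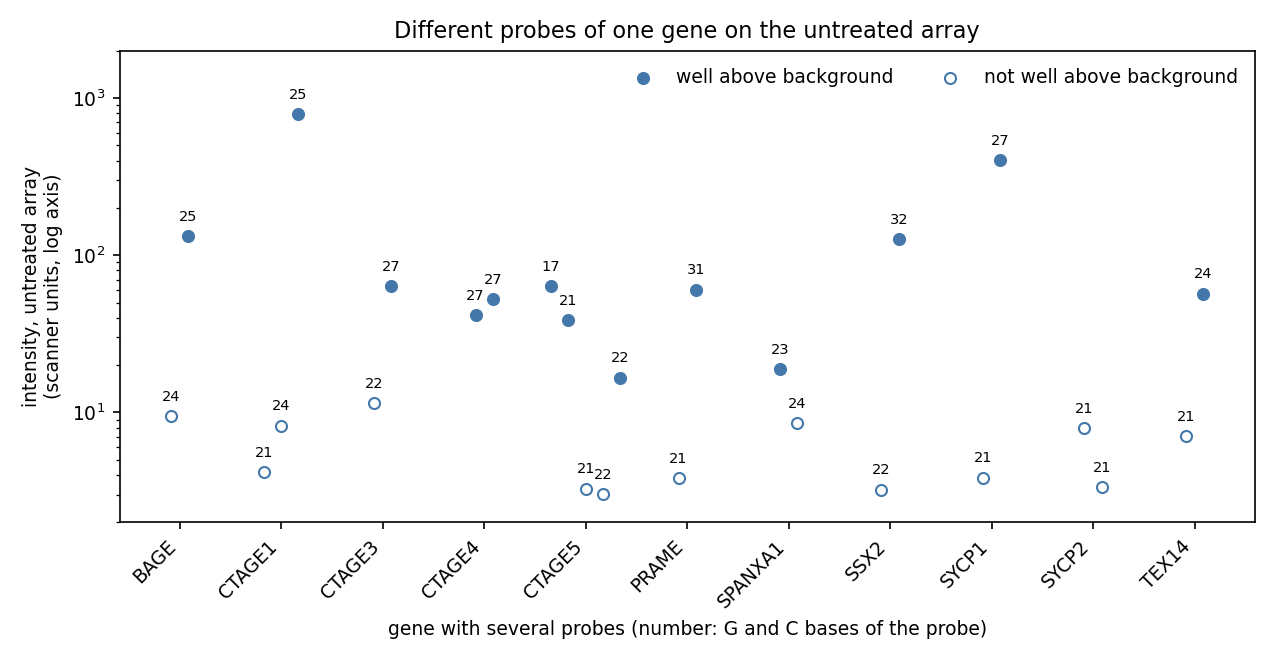
Intensity on the untreated array (scanner units, log axis) of each probe of the 11 member gene names with several probes. The probes named BAGE and CTAGE5 were placed on more than 1 chromosome. Filled points were well above background, open points were not, and the number above each point counts the G and C among the 60 bases. In 9 genes filled and open points occur together, as for SYCP1 at 401 (27 G and C) and 3.85 (21 G and C).

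The same held across genes. With at most 21 G and C, 5 of 22 member probes (22.7%) were well above background on the untreated array, against 35.6% of all such probes. With 22 to 24 the count was 8 of 18 (44.4%, all probes 60.7%), and with 25 to 27 it was 26 of 36 (72.2%, all probes 80.3%). With at least 28 it was 8 of 11 (72.7%, all probes 95.9%). The share of members was thus below that of all probes in each of the 4 classes, with 11 to 36 members in a class and no test of the differences. The part of probe composition in the signals was not tested beyond these counts.

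**Figure D5:**
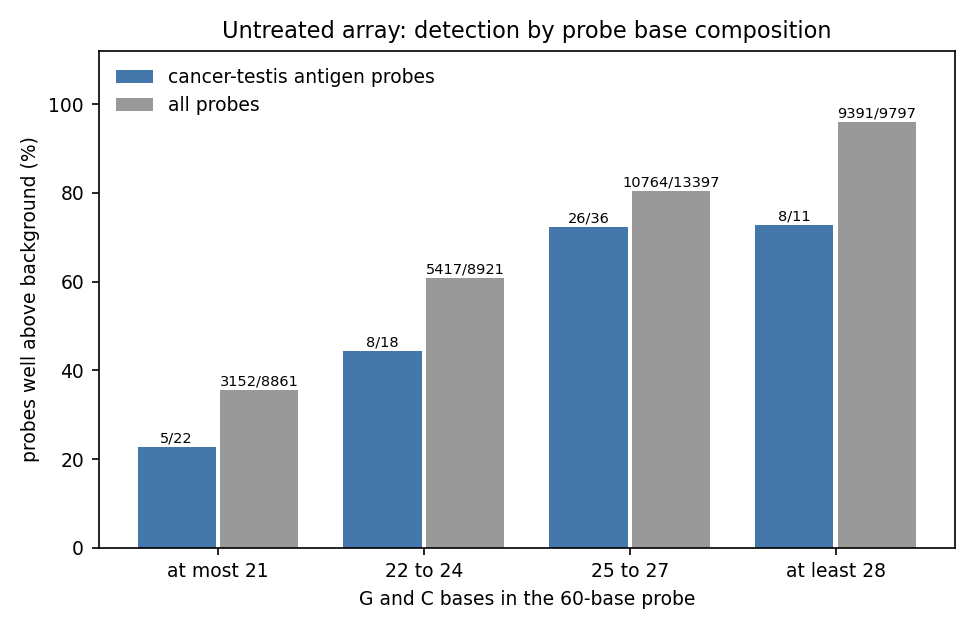
Share of probes well above background on the untreated array (percent), by the number of G and C among the 60 bases of the probe. Blue bars are the members and grey bars all probes, with counts above the bars. Both shares rise with G and C, from 22.7% to 72.7% for the members and from 35.6% to 95.9% for all probes.

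Silencing by promoter methylation acts on CpG pairs. In the RefSeq windows of GRCh38.p14 from 250 bases before to 50 after each start, the 52 member promoters found held a median of 11.5 CpG, against 14 in all 27305 promoters. Those of the 31 genes marked on the untreated array held a median of 13 and those of the other 21 genes 8. The same split over all promoters is not given here. Detection also rose with the G and C of the probe, as given above. Whether promoter CpG bears on detection was not tested. This is a description of the sequences, and methylation was not measured on these arrays.

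Related genes outside the name rule were read in the same way. Of 54 probes for other cancer-testis antigens, 37 were well above background on the untreated array and 34 on the siRNA-treated array, 0 passed the threshold in either direction, and the median ratio was -0.02. The brightest were FTHL17, a ferritin-like testis gene, at 509 and 517, and CXorf48 at 441 and 392. Of 35 probes for meiosis and germ cell genes, 25 and 23 were marked, and 1 was higher and 1 lower. SPO11, the enzyme that makes meiotic DNA breaks, had 43.1 and 126 (1.51), and BOLL, a relative of DAZL, had 89.6 and 44.9 (-1.03). Both spots lay in the corner of the array, and without the corner 0 probes of these lists passed the threshold. Over all probes the calls also fell without it, from 372 to 109 higher and from 272 to 156 lower. A BOLL probe outside the corner had 28.2 and 38.9, with the opposite sign (0.43). The brightest of this list were TEX261, at 1720 and 1530, and TEX264, at 727 and 691.

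The MAGE genes outside the A, B and C families are mostly active in somatic tissues, unlike cancer-testis antigens. Of their 14 probes 12 were marked on both arrays, 0 passed the threshold, and the median ratio was 0.08. On the untreated array the brightest were MAGED2, at 847 and 1050 (0.28), and MAGEE1, at 508 and 571 (0.13). A log2 ratio of size 0.5 or more was found for 4 of these 12 probes (33.3%), against 10.7% of all probes, and they went both ways. NDNL2 was lower at one probe, with 58.05 and 33.0 (-0.85), and had 97.9 and 82.8 (-0.28) at another. MAGED2 was higher at its other probe, with 413 and 683 (0.69). MAGED1 had 364 and 579 (0.63) at one probe and 200.4 and 204 (-0.01) at another, and NDN had 25.8 and 38.2 (0.53). The measured probes of MAGED1 and of NDNL2 thus differed in size of change.

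Ep-CAM itself, the siRNA target, read 15.6 untreated and 12.0 siRNA-treated at its probe and was well above background on neither array, so that these arrays do not show the depth of silencing. In the corner of the array lay 11 member probes, of which 5 were measured (MAGEA2B, MAGEC2, BAGE, CTAGEP and SPANXA1). The counts of members called stayed at 0 without them.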

How the data were processed

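Total RNA of 1 untreated and 1 siRNA-treated Y79 culture was labelled with Cy3 and hybridized to 1 Agilent array each. The deposited files hold one intensity per spot, obtained by the authors with Agilent's Feature Extraction software (version 9.5.3.1 per the file headers, 9.1 in the series text) by subtracting background and correcting trends within each array, without scaling between arrays. The authors' table for the series held unsubtracted median brightness: it equalled that column within 1 unit for 40736 of 40736 probes printed once, and served as an alternative.

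Here, spots marked as controls or outliers were dropped, signals were scaled to the 50th percentile of their array (48.8 untreated, 50.0 siRNA-treated), values under 0.01 were set to 0.01, log2 was taken and spots of a probe were averaged, with Python 3.11.15 and pandas 2.3.3. No member spot was an outlier or saturated. The background mark of a probe needed 50% or more of its spots. A probe so marked on both arrays has a ratio, one marked on neither has none, and one marked on 1 array has at most a bound. Thresholds were log2 ratios of 1 and -1. Different probes of a gene are given separately, and signals of different probes were not ranked as amounts of RNA. Every member well above background on at least 1 array is named, the others are given by family, and of the related lists the probes past the threshold and the brightest. GNB3, CRX, NRL, TUBB3, CD3E, KRT8, PTPRC, PECAM1 and PRM1 were chosen after their values were seen. So were the second MAGED2 probe, MAGED1, NDN, NDNL2 and the BOLL probe outside the corner. The members and lists were chosen with earlier results of these data known. Gene names follow the array, and 82 of the 87 member probes matched a current RefSeq symbol (GRCh38.p14) while 5 did not.

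The number of arrays limits the precision: there are no replicates, and the technical error is that of the scanner software's model (median 0.24 on the log2 scale over measured members). Alternatives were other scalings, floors, filters and thresholds, the mean over the probes of a gene, the arrays without the corner, and normexp with an offset of 50 (limma 3.58.1). The corner spanned rows 355 to 532 and columns 43 to 85, and how these limits were set is not given here. The code for the calls was checked on simulated data, with changes planted well past the threshold in bright probes. That check does not bear on ratios near the threshold or on dim probes.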

Additional observations from a re-analysis of the deposited data

How the results depend on the processing

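The counts of members called higher and lower were 0 and 0 under every alternative but 2. With normexp background correction 1 member was lower (CTAGE1, -1.24) and 0 were higher. That fit shifted the median of all measured probes to -0.20, and refitting it without spots dimmer than their surroundings, an alternative chosen after seeing the data, left 0 and 0. Without a filter on dim probes 2 members were higher (SSX8 and TEX15) and 1 was lower (the dim BAGE probe), and these 3 were well above background on neither array. The median ratio of the members ran from -0.08 to -0.01 over all alternatives. In the other gene lists together, 1 probe higher (SPO11) and 1 lower (BOLL) became 0 and 0 without the corner, with either normexp fit and with the authors' table. The lower count was 0 without scaling and with the mean over the probes of a gene. The higher count was 4 without a filter and 4 with ratios above 1.5. Apart from the corner, which holds both spots, the cause was not tested. Of 46 measured members, the ratio moved by more than the technical spread of 0.14 for 24 under normexp, 12 under its refit, 13 in the authors' table and 1 under quantile normalization, and for 0 under the other alternatives that give a ratio per probe. The ratio changed sign for 13, 8, 10 and 1 of the members in these 4 settings and for 1 without scaling. No paired analysis was possible because each condition has 1 array, and for the same reason no replicate could be left out.

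Signal over background limits what can be read: 40 of 87 probes were dim on both arrays, and gave no ratio. The siRNA target was itself below the mark.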
